A study of Mus musculus with 8 samples.

Results

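Mature miRNAs were compared between mouse embryonic stem cells with and without Ago2. The members are the small RNA libraries of these cells: 2 of wild type E14, named A and B, and 2 of Ago2 knockout cells, 1 from each of the knockout lines 1 and 2, 4 of the 8 libraries in the series. E14 is a pluripotent line of 129/Ola background taken from a blastocyst, and the knockout lines carry the same background. All 4 libraries came from cells grown on gelatine with serum and LIF, the factor that keeps such cells undifferentiated, and none of them had doxycycline. The labels name neither the kind of Ago2 mutation nor whether a line is 1 clone. They also do not say whether wild type A and B are separate cultures. The p-values measure the spread between libraries of 1 group, pooled over all groups of the series, and this spread may be technical. The remaining 4 libraries come from an AGO1 line built on knockout line 1, without and with doxycycline at 1 µg/mL. They helped to estimate the spread in the test, in which the knockout lines, the least alike pair, share 1 estimate with the other groups. Otherwise these 4 libraries are set beside the results as plain values.

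AGO2 is 1 of the mammalian Argonaute proteins, which take up a miRNA and carry it to target RNAs. A hairpin precursor is cut by Dicer into a duplex of a 5p and a 3p arm, 1 strand is kept in Argonaute, and the other is usually lost. Bases 2 to 8 of the kept strand form the seed, which pairs with targets, so miRNAs with the same seed share many targets. AGO2 is also the family member best known for slicing, on which the maturation of miR-451a depends.

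The miRNAs that fell furthest without Ago2 are shown first, since several of them have close relatives that fell less or were not called. The seed is in capitals, all sequences are RefSeq mature miRNAs of GRCm38, and each is written 5′ to 3′.
miR-301a-3p: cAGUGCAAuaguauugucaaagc
miR-130a-3p: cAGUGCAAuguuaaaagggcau
miR-130b-3p: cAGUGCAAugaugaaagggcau
miR-103-3p: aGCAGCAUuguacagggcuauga
miR-107-3p: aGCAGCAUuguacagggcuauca
miR-186-5p: cAAAGAAUucuccuuuugggcu
miR-431-5p: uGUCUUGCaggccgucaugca
miR-433-3p: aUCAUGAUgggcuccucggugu
miR-666-5p: aGCGGGCAcagcugugagagcc
miR-298-5p: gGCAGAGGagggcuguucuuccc
miR-341-3p: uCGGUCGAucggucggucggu
let-7e-5p: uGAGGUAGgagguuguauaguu
Counting from 1 at the 5′ end, miR-103-3p and miR-107-3p differ by a single substitution, G22C, while miR-130a-3p and miR-130b-3p differ by U11A and A13G.

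The miRNAs that rose furthest are shown next, because many of them are the less abundant arm of their hairpin, and the miR-142a and miR-205 hairpins appear with their 5p and 3p products.
miR-142a-3p: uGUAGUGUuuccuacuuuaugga
miR-142a-5p: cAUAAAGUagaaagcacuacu
miR-205-5p: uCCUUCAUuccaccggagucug
miR-205-3p: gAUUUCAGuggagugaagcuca
miR-195a-3p: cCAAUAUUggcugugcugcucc
miR-25-5p: aGGCGGAGacuugggcaauugc
miR-150-3p: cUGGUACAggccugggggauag
miR-92a-1-5p: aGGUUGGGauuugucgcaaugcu

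Counts of mature miRNAs came to 949620 and 1115712 in wild type and to 359099 and 163467 in knockout lines 1 and 2, so the knockout was read less deeply. Levels are given as CPM, counts scaled to a common library size with edgeR's TMM factors, so each level is relative to the other miRNAs of its library and a common shift of every miRNA is invisible. Where a library had 0 counts, a level of up to 3 counts is possible, or 3.56 and 2.70 CPM in wild type and 7.48 and 15.1 CPM in the knockout lines. The genotype rests on the labels. The products of the miR-290 to miR-295 cluster, which mark pluripotent cells, made up 28.1% and 25.8% of wild type counts against 30.8% and 29.5% in knockout lines 1 and 2. Shares of counts, here and below, use library totals without TMM factors, so they can move otherwise than CPM. In CPM the 18 products of this cluster had a median log2 change of -0.35.

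Of 1915 listed mature miRNAs, 475 had enough counts to be tested, and 274 of these (57.7%) differed between knockout and wild type at an adjusted p under 0.05 (edgeR quasi-likelihood test, p adjusted by Benjamini-Hochberg). In the knockout, 121 were higher (25.5%) and 153 were lower (32.2%). Changes of at least 4-fold numbered 56 upward and 69 downward, and 23 miRNAs stood at 10% or less of their wild type level. The range of the knockout libraries lay clear of that of the wild type libraries for 367 of the 475 (77.3%), 163 on the higher and 204 on the lower side. The number called lower dropped to 91 without wild type A and to 88 of 325 tested when all libraries were thinned to the smallest. With library totals in place of TMM factors, the median log2 change of the 475 miRNAs was 0.16 instead of -0.12, with 155 calls higher and 111 lower. Fitted on the wild type and knockout libraries alone, 194 of 421 tested miRNAs were called.

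**Figure D1:**
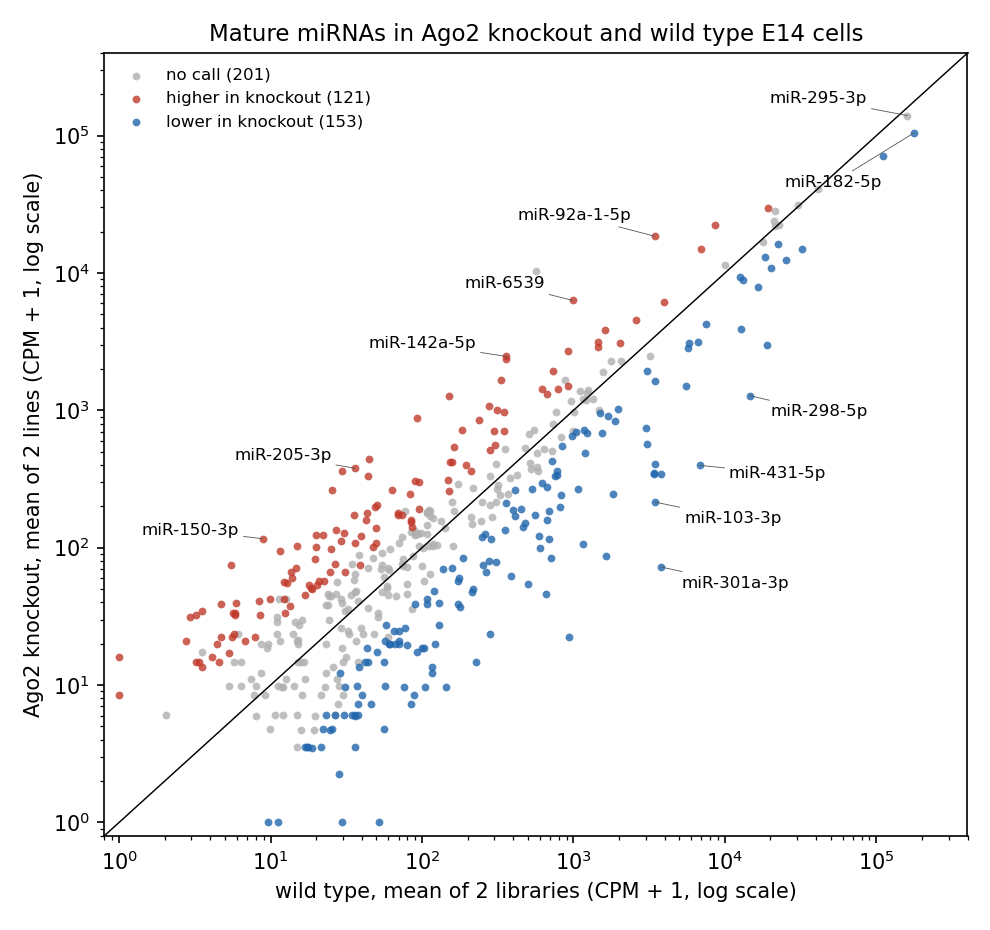
Mean CPM + 1 of each of the 475 tested miRNAs in wild type (x) and Ago2 knockout (y), 2 libraries each, both axes logarithmic, with the line of equality. The 121 miRNAs called higher (red) lie above the line and the 153 called lower (blue) below it, and miR-301a-3p is farthest below among the abundant ones.

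miR-301a-3p showed the deepest fall among the miRNAs averaging at least 50 CPM. It belongs to the miR-130 and miR-301 family, and its hairpin lies in an intron of Ska2 on chromosome 11 (87113004 to 87113089, plus strand, GRCm38). Its level was 3920 and 3638 CPM in wild type A and B against 67.4 and 75.5 CPM in knockout lines 1 and 2, a log2 change of -5.74 ± 0.23 (SE; edgeR adjusted p = 6.99e-08). miR-301b-3p, a near relative encoded elsewhere, went from 963.5 and 897.7 CPM to 22.5 and 20.1 CPM (log2 change -5.42 ± 0.31, edgeR adjusted p = 6.03e-07). Within each genotype the libraries lay close together for both miRNAs, and the knockout libraries lay more than an order of magnitude below wild type.

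Introns of pantothenate kinase genes encode the next pair. miR-103-3p comes from Pank3 (chromosome 11, 35782396 to 35782481) and Pank2 (chromosome 2, 131288052 to 131288137), and miR-107-3p from Pank1 (chromosome 19, 34820687 to 34820773). miR-103-3p measured 3609 and 3288 CPM in wild type against 252 and 176 CPM in the knockout lines (log2 change -3.99 ± 0.23, edgeR adjusted p = 6.03e-07). miR-107-3p fell alongside it, from 324 and 236 to 25.0 and 20.1 CPM (log2 change -3.59 ± 0.39, edgeR adjusted p = 6e-05). Their sequences differ in 1 base, so reads of the pair may not be cleanly divided between them. miR-186-5p, from an intron of Zranb2, was named after its values were seen: it fell from 3551 and 3298 CPM to 324 and 362 CPM (log2 change -3.32 ± 0.19, edgeR adjusted p = 6.33e-07).

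Of the 12 largest falls, 5 came from the imprinted Dlk1-Dio3 region of chromosome 12, whose miRNAs are transcribed from the maternal chromosome. miR-431-5p and miR-433-3p lie opposite exon sequence of Rtl1, a retrotransposon-derived gene that they can cleave. miR-431-5p stood at 7415 and 6204 CPM in wild type, against 422 and 372 CPM in the knockout lines (log2 change -4.10 ± 0.22, edgeR adjusted p = 5.52e-07). miR-433-3p fell from 1792 and 1506 CPM to 122 and 50.3 CPM, a log2 change of -4.17 ± 0.33 (edgeR adjusted p = 6.5e-06) that became -5.03 when knockout line 1 was left out. miR-341-3p, in an intron of the noncoding RNA Rian, fell from 4296 and 3318 CPM to 402 and 282 CPM (log2 change -3.46 ± 0.28, edgeR adjusted p = 6.7e-06). miR-666-5p fell from 634 and 680 to 44.9 and 45.3 CPM, and miR-1197-3p from 270.5 and 184 CPM to 27.4 CPM in line 1 and 0 counts in line 2. The miR-1197-3p change of -3.70 became -10.43 without line 1 and -3.01 without line 2.

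The other large falls came from unrelated loci. miR-298-5p, an embryonic miRNA of the imprinted Gnas region (chromosome 2, 174267504 to 174267585, minus strand), was among the more abundant miRNAs of wild type, at 15420 and 13680 CPM, and had 1806 and 755 CPM in the knockout lines (log2 change -3.50 ± 0.34, edgeR adjusted p = 2.24e-05). Without knockout line 1 the change was -4.27. let-7e-5p, a let-7 family member in an intron of Spaca6, fell from 113 and 119 CPM to 7.48 and 15.1 CPM, which are 3 counts in each knockout library, and its log2 change of -3.49 became -2.24 in thinned counts. miR-6944-3p fell from 178 and 108 CPM to 12.5 and 5.03 CPM (log2 change -3.83, or -4.77 without line 1). miR-143-3p, a miRNA of contractile vessel cells, was not among the 12 but fell from 3142 and 3689 to 352 and 347 CPM (log2 change -3.29 ± 0.20, edgeR adjusted p = 8.16e-07).

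For 4 miRNAs called lower, both knockout libraries had 0 counts. In wild type, miR-412-5p of the Dlk1-Dio3 region had 46 and 52 counts. With 3 counts allowed per knockout library, and the wild type counts taken as exact, this is at least 4.49-fold lower. miR-291b-3p had 25 and 31 counts in wild type, at least 2.55-fold lower. miR-380-5p and miR-3085-3p had 21 and 16 wild type counts in all, too few for a bound above 1, and neither call held with every library left out: without line 1 the edgeR adjusted p was 0.151 and 0.195. In the opposite direction, 3 counts were allowed per wild type library. The few knockout counts were taken as exact, so these ratios are not strict lower bounds. miR-299b-5p had 0 wild type counts against 8 in line 1 and 2 in line 2, which is 4.80-fold higher on that reckoning. miR-670-3p had 0 against 4 in all, 2.40-fold higher. The latter call did not hold when wild type B was removed (edgeR adjusted p = 0.0615).

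**Figure D2:**
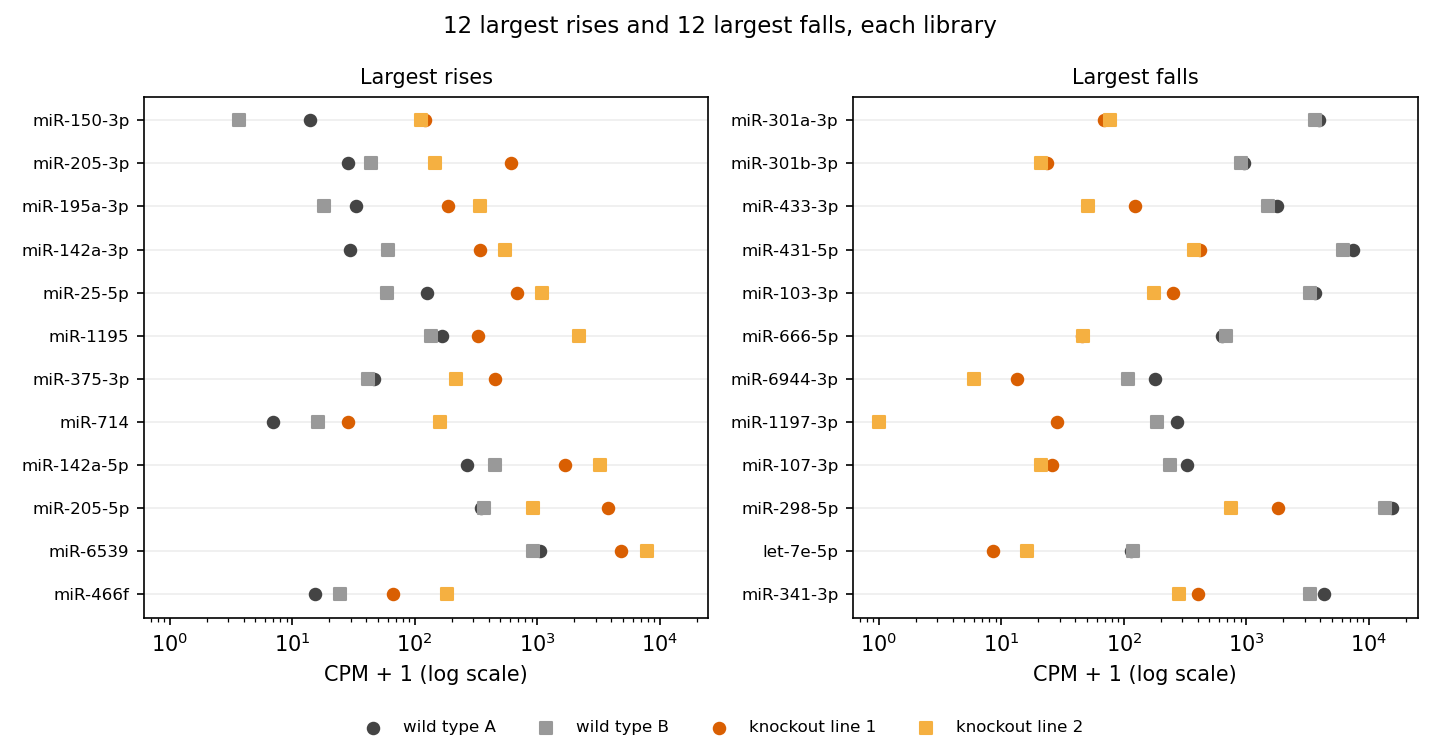
CPM + 1 (logarithmic axis) of the 12 largest rises (left) and 12 largest falls (right) among calls averaging at least 50 CPM, 1 symbol per library. Wild type libraries (grey) and knockout lines (orange) are separated in every row because only calls with non-overlapping groups were eligible, and the 2 knockout lines lie far apart for miR-1195, miR-714 and both miR-205 arms.

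The largest rises included both arms of 2 hairpins with tissue-restricted expression. miR-142a is typical of blood cells, and its 3p arm measured 28.5 and 59.4 CPM in wild type against 342 and 543 CPM in the knockout lines (log2 change 3.29 ± 0.38, edgeR adjusted p = 8.46e-05). Its 5p arm rose from 265 and 454 CPM to 1689 and 3250 CPM (log2 change 2.77 ± 0.34, edgeR adjusted p = 0.000103). miR-205, typical of epithelia, rose in both arms but unevenly between the lines: miR-205-5p had 344 and 369 CPM in wild type, 3807 CPM in line 1 and 916 CPM in line 2 (log2 change 2.73 ± 0.50, edgeR adjusted p = 0.00141), and miR-205-3p had 27.3 and 43.2, then 609 and 146 CPM (log2 change 3.44). Without line 1 the changes were 1.37 and 2.03, and without line 2 they were 3.45 and 4.12, in the same order. The miR-142a-3p change became 3.92 without wild type B.

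miR-25-5p, the rarer arm of an abundant hairpin within the Mcm7 gene (chromosome 5, 138165321 to 138165404, minus strand), rose from 125 and 58.5 CPM to 679 and 1082 CPM (log2 change 3.27 ± 0.37, edgeR adjusted p = 7.77e-05). Likewise a rarer arm, miR-195a-3p rose from 32.0 and 17.1 to 185 and 337 CPM (log2 change 3.40 ± 0.40, edgeR adjusted p = 8.67e-05). miR-150-3p rose from 13.1 and 2.70 CPM, only 11 and 3 counts, to 120 and 111 CPM (log2 change 3.94 ± 0.53, edgeR adjusted p = 0.00019). In these 3 the wild type libraries differed from each other, and without wild type A the changes were 4.09, 4.08 and 5.50, while without wild type B that of miR-150-3p was 3.12. miR-375-3p, typical of pancreatic islets, rose from 45.1 and 40.5 to 447 and 216 CPM (log2 change 2.98, or 2.34 without line 1).

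The remaining rises among the 12 are miRNAs of less usual annotation. miR-6539 rose from 1057 and 918 to 4840 and 7797 CPM (log2 change 2.68 ± 0.24, edgeR adjusted p = 1.52e-05). miR-1195 had 165 and 135 CPM in wild type, 324 CPM in line 1 and 2198 CPM in line 2, and its log2 change of 3.06 was 1.15 without line 2 and 3.88 without line 1. miR-466f, of the repeat-rich Sfmbt2 group, rose from 14.2 and 23.4 to 64.9 and 181 CPM (log2 change 2.58, with 3.24 and 1.79 without lines 1 and 2). miR-714 went from 5.93 and 15.3 to 27.4 and 161 CPM, with a log2 change of 2.93 that became 3.85 without line 1 and 1.34 without line 2. It did not pass when wild type A (edgeR adjusted p = 0.119) or B (0.0547) was removed, nor in thinned counts (0.0503).

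The 10 most abundant miRNAs moved little by comparison. miR-295-3p, which leads the pluripotency cluster by abundance, had 176100 and 144500 CPM in wild type against 146500 and 133700 CPM in the knockout lines, a log2 change of -0.20 ± 0.15 (edgeR adjusted p = 0.273). miR-182-5p, from a cluster shared with miR-183 and miR-96, fell from 182000 and 171900 CPM to 104700 and 104500 CPM (log2 change -0.76 ± 0.15, edgeR adjusted p = 0.00176). miR-541-5p of the Dlk1-Dio3 region fell from 33540 and 30800 to 18460 and 11570 CPM (log2 change -1.10 ± 0.21, edgeR adjusted p = 0.00171). miR-22-3p lay at 40900 and 40920 CPM in wild type against 40940 and 40320 CPM in the knockout lines, and no call was made for it, miR-26a-5p, miR-292a-5p, miR-292a-3p or miR-294-3p. The calls of miR-127-3p (log2 change -0.65) and miR-411-5p (log2 change 0.64) did not hold with every library left out: without wild type A the first had an edgeR adjusted p of 0.181, 0.121 without knockout line 2, 0.0513 and 0.0653 without the induced AGO1 libraries A and B, and without wild type B the second had 0.0678. Calls were made for 36.4% of 33 miRNAs under 10 CPM, 53.3% of 214 up to 100 CPM, 62.5% of 152 up to 1000 CPM, 73.1% of 52 up to 10000 CPM and 62.5% of the 24 above that.

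To see whether miRNAs with the same targets moved together, counts were summed over miRNAs with the same seed. Of 310 seed families tested, 184 (59.4%) changed, 76 upward (24.5%) and 108 downward (34.8%), in the same edgeR test. Without wild type A only 65 were called lower, and without wild type B 43 higher. A set of 24 families with at least 2 tested members and a mean of at least 500 CPM, chosen after values were seen, is described here. Their members spanned a median range of 1.51 on the log2 scale, and 3 of the 24 families held calls in both directions.

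In 5 of the 24 families every tested member was called lower: those of miR-103-3p, miR-18a-5p, miR-27b-3p, miR-148a-3p and miR-291a-5p. With each of the 8 libraries left out in turn, this held throughout for the first 2. The miR-27b-3p and miR-291a-5p families kept it without wild type B and without knockout line 1, and the miR-148a-3p family in no case. The miR-103 and miR-107 family fell from 3933 and 3523 CPM to 277 and 196 CPM (log2 change -3.96 ± 0.23, edgeR adjusted p = 3.52e-06). The miR-18 family, part of the growth-promoting miR-17 to miR-92 clusters, fell from 1520 and 1222 to 260 and 342 CPM (log2 change -2.20 ± 0.23, edgeR adjusted p = 9.8e-05), with miR-18a-5p at -1.89 and miR-18b-5p at -2.63. The let-7 family, which restrains growth and marks differentiation, was rare in these cells and fell from 2002 and 1596 to 644 and 458 CPM (log2 change -1.70 ± 0.23, edgeR adjusted p = 0.000445). Its members did not move alike: let-7e-5p, let-7a-5p, let-7f-5p and let-7g-5p fell by 3.49, 2.21, 2.02 and 1.79, while let-7c-5p had a log2 change of 0.02 (94 and 106 against 117 and 80.5 CPM, edgeR adjusted p = 0.967).

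The seed AGUGCAA is shared by miR-130a-3p, miR-130b-3p and miR-301a-3p, whose sequences stand above. Their sum fell from 14550 and 12600 CPM to 6404 and 4995 CPM (log2 change -1.25 ± 0.17, edgeR adjusted p = 0.00041). miR-301b-3p, described above, is not in this sum, which holds only members with a matched sequence. miR-301a-3p made up 27.8% of the sum in wild type and 1.3% in the knockout. miR-130a-3p fell from 7203 and 5983 to 3485 and 2837 CPM (log2 change -1.06 ± 0.18, edgeR adjusted p = 0.000986). miR-130b-3p, at 3429 and 2985 against 2851 and 2083 CPM, was not called (log2 change -0.38 ± 0.20, edgeR adjusted p = 0.126), and it supplied 23.6% of the sum in wild type against 43.3% without Ago2.

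The seed of miR-25 and miR-92 shows a family whose members were called in opposite directions. They are printed to show that they share the seed and differ in some bases outside it.
miR-25-3p: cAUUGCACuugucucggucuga
miR-92a-3p: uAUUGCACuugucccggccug
miR-92b-3p: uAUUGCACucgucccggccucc
miR-363-3p: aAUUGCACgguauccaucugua
The sum was 42980 and 36880 CPM in wild type against 52770 and 49790 CPM in the knockout (log2 change 0.36 ± 0.12, edgeR adjusted p = 0.0286), a call that failed when wild type B (edgeR adjusted p = 0.209) or knockout line 1 (0.144) was removed. miR-92b-3p rose from 9503 and 7643 to 22340 and 22720 CPM (log2 change 1.39 ± 0.16, edgeR adjusted p = 7.3e-05), from 21.5% to 43.9% of the family. miR-363-3p, of the X-linked miR-106a cluster, fell from 3939 and 3015 to 554 and 262 CPM (log2 change -3.07 ± 0.33, edgeR adjusted p = 4.61e-05, and -3.73 without line 1), from 8.7% to 0.8%. The 2 main other members, miR-25-3p and miR-92a-3p, were not called, with log2 changes of -0.09 and 0.21.

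miR-181 was a further divided family. Its sum fell from 6230 and 5995 to 2692 and 2555 CPM (log2 change -1.22 ± 0.15, edgeR adjusted p = 0.000267). miR-181c-5p, which made up 50.1% of the family in wild type and 21.6% in the knockout, fell from 3099 and 3021 to 529 and 604 CPM (log2 change -2.44 ± 0.19, edgeR adjusted p = 4.86e-06). miR-181d-5p, from the same precursor transcript, had 3122 and 2951 against 1913 and 1932 CPM. Its call (log2 change -0.66, edgeR adjusted p = 0.00723) failed when wild type A (edgeR adjusted p = 0.115), induced AGO1 library A (0.0829) or B (0.0746) was removed, and with library totals in place of TMM factors (0.063). miR-181a-5p, rare in wild type at 7.12 and 20.7 CPM, had 192 CPM in line 1 and 10.1 CPM in line 2. Its log2 change of 2.95 turned to -0.51 without line 1, was 3.93 without wild type B and 3.75 without line 2, and was no longer called without wild type A. miR-181b-5p, also rare, was called higher too (log2 change 3.84, edgeR adjusted p = 0.0033) and made up 1.3% of the family in the knockout. Without line 1 its change was 1.92 and no longer called.

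**Figure D3:**
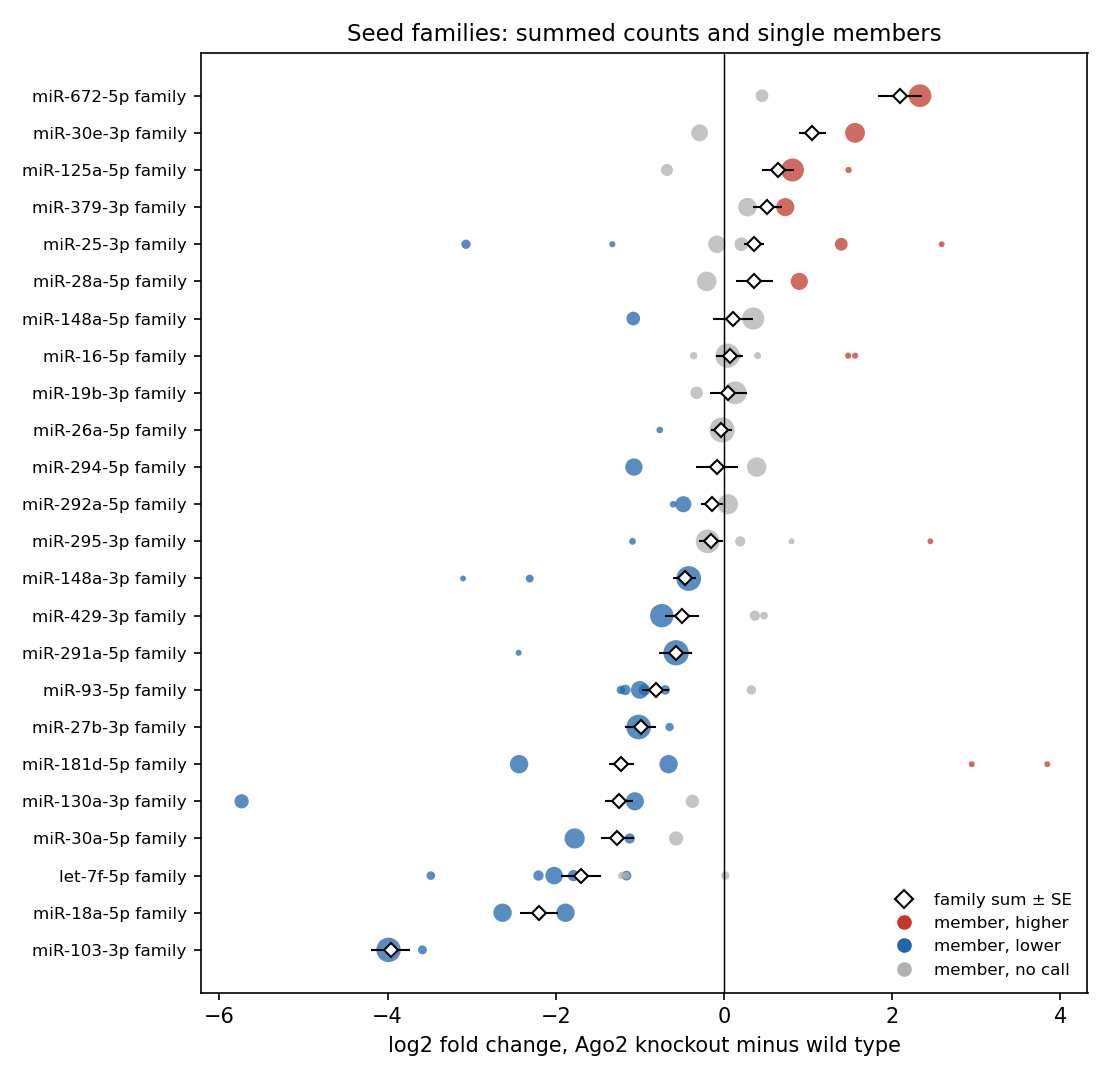
Log2 fold change (knockout minus wild type) of the summed counts of 24 seed families (white diamonds with SE) and of their single members (dots, area by share of the family in wild type, red higher, blue lower, grey not called). The miR-103 family lies lowest at -3.96, and the members of the miR-25, miR-130 and miR-181 families spread on both sides of their sums.

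The families that changed furthest by the same measure mostly held 1 miRNA. Besides miR-412-5p, miR-291b-3p, miR-433-3p and miR-431-5p they were miR-380-5p and miR-3074-5p on the lower side, the latter with 69 counts in wild type and 1 in the knockout (edgeR adjusted p = 0.0627 without knockout line 1). On the higher side were miR-205-3p, miR-150-3p, miR-92a-2-5p (3 and 1 counts in wild type, 7 and 9 in the knockout), miR-299b-5p, miR-670-3p and a family led by miR-302d-5p, whose call failed when line 1 (log2 change 2.58, edgeR adjusted p = 0.217) or wild type B (2.70, edgeR adjusted p = 0.0616) was removed. Most of these rest on few counts.

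The balance of the 2 arms of a hairpin was tested next, since both arms come from the same precursor and their ratio within a library does not depend on how libraries are scaled. Of 166 hairpins with counts for both arms, 58 (34.9%) changed their 3p to 5p ratio in the edgeR test, 32 toward 3p and 26 toward 5p. In 48 of the 58, the arm that gained was the minor arm of wild type, and in 10 the major arm. Since wild type also enters the contrast, the minor arm was defined a further time, after the data were seen, from the AGO1 line libraries, which gave 40 and 18. That line was built on knockout line 1, so this definition leans to the knockout side and is not an independent check. Over all 166 the median log2 change of minor over major was 0.55 by the first and 0.27 by the second definition. In 22 hairpins, 11 of them called, the more abundant arm differed between wild type and knockout.

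Sequences of both arms are given for 5 hairpins that show how an arm balance moved, with the seed in capitals.
miR-181c-5p: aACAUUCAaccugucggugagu
miR-181c-3p: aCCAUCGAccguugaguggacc
miR-18a-5p: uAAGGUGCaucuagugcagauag
miR-18a-3p: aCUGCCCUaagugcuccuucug
miR-30e-5p: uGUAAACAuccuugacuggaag
miR-30e-3p: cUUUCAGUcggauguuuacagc
miR-27b-5p: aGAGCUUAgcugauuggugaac
miR-27b-3p: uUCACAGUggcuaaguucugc
miR-93-5p: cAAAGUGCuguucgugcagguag
miR-93-3p: aCUGCUGAgcuagcacuucccg

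miR-181c changed its dominant arm. The 3p arm took 33.4% and 31.2% of its wild type counts against 85.3% and 81.6% in knockout lines 1 and 2 (32.3% ± 1.49 and 83.4% ± 2.57, SD, n = 2 each; log2 change of the ratio 3.42 ± 0.24, edgeR adjusted p = 8.12e-10). Both arms moved: miR-181c-3p rose from 1551 and 1373 to 3059 and 2681 CPM, beside the fall of miR-181c-5p given above. In the AGO1 line the 3p share was 86.4% and 82.9% without and 86.8% and 85.6% with doxycycline.

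miR-18a went from 10.4% and 8.8% of counts on its 3p arm to 39.3% and 38.3% (log2 change of the ratio 2.59 ± 0.33, edgeR adjusted p = 3.28e-06). Here the major arm fell (miR-18a-5p, log2 change -1.89 ± 0.23, edgeR adjusted p = 9.83e-05), while miR-18a-3p was not called (85.4 and 61.2 against 120 and 116 CPM, edgeR adjusted p = 0.0849). miR-363 moved in the same manner toward its 5p arm, with 93.2% and 93.8% of wild type counts on 3p against 72.8% and 71.2% in the knockout (log2 change of the ratio -2.47 ± 0.27, edgeR adjusted p = 4.2e-07).

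In other hairpins the minor arm itself rose. The 3p share of miR-25 went from 99.3% and 99.7% to 96.6% and 93.0% (log2 change of the ratio -3.39 ± 0.36, edgeR adjusted p = 3.11e-07), with miR-25-5p called higher and miR-25-3p not called. miR-27b, a hairpin with a strongly dominant 3p arm, went from 99.2% and 99.4% to 96.2% and 92.5% (log2 change of the ratio -3.01 ± 0.32, edgeR adjusted p = 3.07e-07). For it, miR-27b-5p rose from 237 and 127 to 549 and 895 CPM (log2 change 1.98, or 2.68 without wild type A) while miR-27b-3p fell from 28130 and 22430 to 14050 and 10970 CPM. miR-93, beside miR-25 in Mcm7, had 3p shares of 0.18% and 0.13% in wild type, below the 1.09% and 1.81% of the knockout lines, from 9 and 8 against 13 and 10 counts of that arm (log2 change of the ratio 3.12 ± 0.47, edgeR adjusted p = 2.59e-05). Of the 48 hairpins that moved toward the minor arm of wild type, 19 had only the minor arm called higher, 18 only the major arm called lower, 10 both and 1 neither.

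A few hairpins moved further toward an arm that was already dominant. miR-30e went from 85.3% and 85.7% of counts on its 3p arm to 97.3% and 97.7% (log2 change of the ratio 2.69 ± 0.28, edgeR adjusted p = 3.07e-07), and miR-30e-3p rose from 980 and 863 to 2881 and 2540 CPM. miR-296, the neighbour of miR-298, went from 55.5% and 61.5% to 81.9% and 84.5% (log2 change of the ratio 1.76 ± 0.28, edgeR adjusted p = 3.45e-05). By mean share, dominance passed from the 5p to the 3p arm in miR-30a (42.7% and 44.8% on 3p in wild type, 71.7% and 64.9% in the knockout), miR-30d (30.4% and 34.4%, then 57.1% and 67.7%) and miR-290a (51.2% and 34.3%, then 68.0% and 73.0%). These hairpins beyond the 6 largest changes to each side were chosen after their values were seen.

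The other hairpins with the largest changes had few counts on an arm or unequal libraries. miR-19a (95.9% and 96.2% on 3p in wild type, 85.6% and 68.6% in the knockout) changed by -2.69, or -3.47 and -2.03 without lines 1 and 2. miR-20b (1.25% and 0.87%, then 5.88% and 9.40%) changed by 2.84 ± 0.44 (edgeR adjusted p = 2.73e-05), and miR-150 (0.84% and 0.20%, then 3.15% and 4.09%) by 2.83, which was 4.11 without wild type A and 2.08 without wild type B. miR-466o (89.1% and 90.3%, then 57.1% and 55.0%) changed by -2.78, with 6 counts of 5p and 8 of 3p in line 1 and 9 and 11 in line 2. The call of miR-494 (-2.96) was lost without line 1 (-1.66, edgeR adjusted p = 0.261) and was -4.70 without line 2. That of miR-671 (3.34) was lost without line 1 (7, edgeR adjusted p = 0.0675) and without line 2 (2.88, edgeR adjusted p = 0.0542). miR-186 changed by 3.05, and its ratio was of like size but not called without line 1 (2.95, edgeR adjusted p = 0.262) and without line 2 (3.10, edgeR adjusted p = 0.0853).

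**Figure D4:**
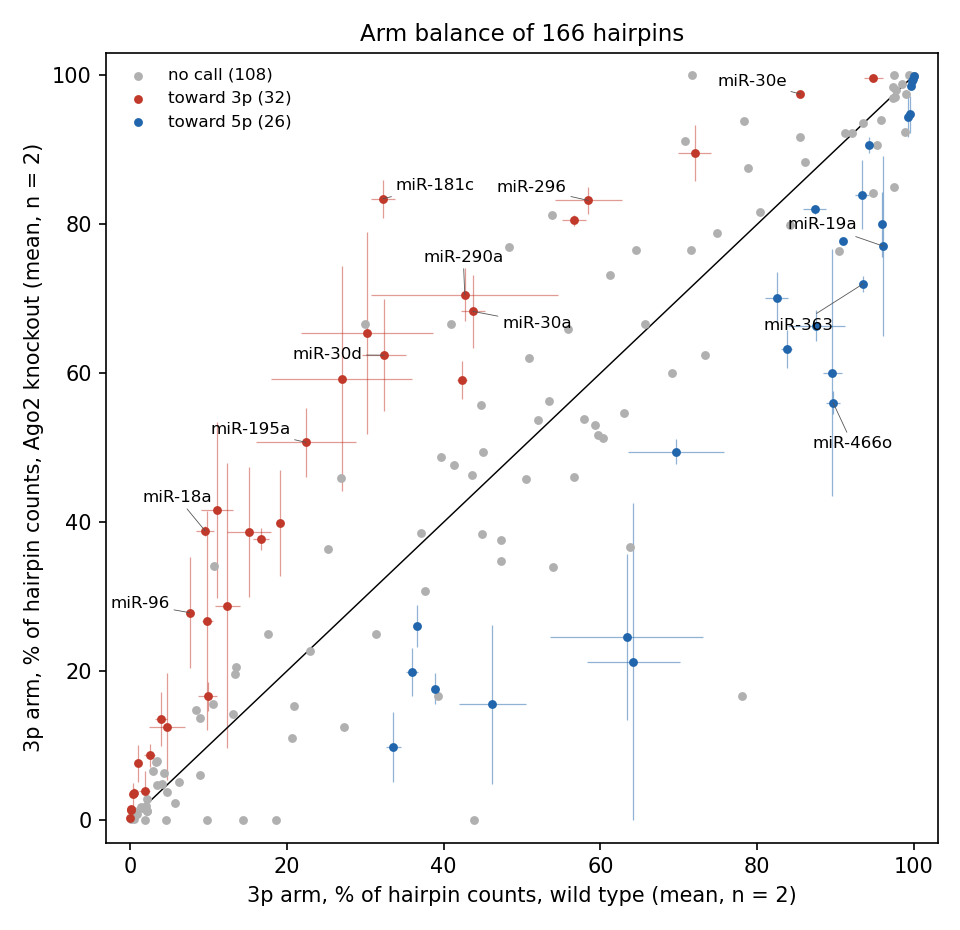
Share of a hairpin's counts on its 3p arm (%) in wild type (x) and knockout (y), mean of 2 libraries for each of 166 hairpins, with the SD as bars for the 58 called ones. The 32 hairpins called toward 3p (red) lie above the line of equality and the 26 called toward 5p (blue) below it, and miR-181c lies at 32.3% in wild type and 83.4% in the knockout.

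First bases of the arms are a feature the test did not use. Both sequences were found for 43 of the 58 called hairpins, and their losing arms began with U in 22, A in 12, C in 9 and G in 0 cases. The gaining arms began with A in 18, C in 10, G in 9 and U in 6. Major arms differ in this respect already: over the 128 tested hairpins with both sequences, U began 61 major and 22 minor arms, and A began 30 major and 54 minor arms. Among the 85 hairpins without a call, the major arm began with U in 40 and the minor arm in 15.

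First bases were also compared over single miRNAs. Of 384 tested miRNAs with a sequence, 148 began with U, of which 26 were called higher and 51 lower, with a median log2 change of -0.54. The 116 that began with A had 35 higher and 38 lower calls and a median of -0.02, the 78 with C had 16 and 31 and a median of -0.45, and the 42 with G had 12 and 17 and a median of 0.22. Across the 384 miRNAs, which share libraries and are not independent, the log2 change had a Pearson correlation of -0.04 and a Spearman correlation of -0.05 with GC content, and of 0.06 and 0.05 with length.

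Hairpins that lie within 10000 bases of each other on 1 strand are often cut from the same transcript, so they were grouped by position. Calls in these clusters are to be read against 25.5% higher and 32.2% lower over all tested miRNAs. Arms were counted singly, so the 2 arms of 1 hairpin can give calls in both directions, as those of miR-181c did. Of 28 such clusters with at least 2 tested hairpins, 13 held calls in both directions, and so did 9 of the 14 clusters with at least 4 tested miRNAs. With each of the 8 libraries left out, these counts were 11 to 14 and 8 to 11. The largest, miR-379 to miR-3072 in the Dlk1-Dio3 region (chromosome 12, 109709065 to 109747949, plus strand), had 7 higher and 28 lower calls among 50 tested, and 4 higher without wild type B. It held miR-134-3p (4.75 and 4.50 against 29.9 and 35.2 CPM, log2 change 2.75) beside miR-666-5p (-3.86), and miR-379-3p rose from 922 and 903 to 1647 and 1373 CPM (log2 change 0.73 ± 0.18, edgeR adjusted p = 0.00737).

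Smaller clusters show the same mixture at close range. The miR-99b, let-7e and miR-125a cluster on chromosome 17 (17830194 to 17830876) held miR-99b-5p, which fell from 3005 and 3029 to 669 and 820 CPM (log2 change -2.02 ± 0.19, edgeR adjusted p = 1.7e-05), and miR-125a-5p, which rose from 2673 and 2525 to 4236 and 4905 CPM (log2 change 0.81 ± 0.20, edgeR adjusted p = 0.00594). Between them lies let-7e-5p, with the fall given above. Within the miR-183, miR-96 and miR-182 cluster on chromosome 6 (30165923 to 30169732, minus strand), miR-183-5p fell from 12990 and 12750 to 4024 and 3738 CPM (log2 change -1.73 ± 0.18, edgeR adjusted p = 4.61e-05). The rare arm miR-96-3p of the same cluster rose from 52.2 and 43.2 to 130 and 267 CPM (log2 change 2.02 ± 0.37, edgeR adjusted p = 0.00148), and miR-96-5p was not called. In the miR-17 cluster of chromosome 14 (115043684 to 115044459) the log2 changes ran from -1.89 for miR-18a-5p to 4.02 for miR-19b-1-5p, a rare arm with 6 counts in wild type A, 2 in B, 21 in knockout line 1 and 19 in line 2, whose change was 5.33 without wild type A, 3.26 without wild type B and 6.49 in thinned counts. miR-92a-1-5p of this cluster rose from 4439 and 2456 to 15170 and 21860 CPM (log2 change 2.42 ± 0.28, edgeR adjusted p = 7.72e-05, and 3.10 without wild type A).

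Named groups of miRNAs are given next by their counts, to be read against 25.5% higher, 32.2% lower and a median of -0.12 over all tested. Of 111 listed miRNAs of the Dlk1-Dio3 region, 78 were tested, 10 rose and 47 fell, with a median of -1.30, and their combined level was 23.9% and 24.2% of counts in the wild type libraries against 21.6% and 17.1% without Ago2. Without wild type A the lower calls in this region numbered 30, and without wild type B the higher ones 6. The Sfmbt2 repeat group, expressed from an intron of Sfmbt2 and made of near-identical copies whose reads are hard to assign, had 41 tested of 80, with 20 higher, 3 lower and a median of 1.08. The higher calls were 12 without wild type A, and the lower ones were 0 without wild type B or knockout line 1 and 1 without uninduced library A or either induced library. An example is miR-467c-5p, which rose from 273 and 347 to 791 and 1217 CPM (log2 change 1.69 ± 0.26, edgeR adjusted p = 0.000556). Among 18 miR-290 to miR-295 products, all tested, 3 rose and 8 fell with a median of -0.35. Without wild type A only 3 were called lower, without any 1 of the AGO1 line libraries 5, and without wild type B only 1 higher. In that cluster miR-293-3p fell from 18060 and 14990 to 8195 and 7566 CPM (log2 change -1.07 ± 0.16, edgeR adjusted p = 0.000412), and miR-295-5p rose from 339 and 351 to 801 and 1152 CPM (log2 change 1.49 ± 0.25, edgeR adjusted p = 0.000785). The miR-17 to miR-92 cluster with its paralogs had 26 tested of 28, with 8 higher, 10 lower and a median of -0.21.

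Families with mostly lower calls were let-7 and miR-98 (11 tested of 23, 0 higher and 7 lower, median -1.79), miR-130 and miR-301 (8 of 9, 1 and 5, median -1.92), miR-148 and miR-152 (6 of 6, 0 and 5, median -1.37), miR-103 and miR-107 (2 of 5, 0 and 2, median -3.79) and the miR-23, miR-27 and miR-24 clusters (8 of 11, 1 and 6, median -1.06). Several of these counts rest on single libraries. let-7 and miR-98 had 4 lower calls without wild type A. miR-148 and miR-152 had 1 without wild type A, knockout line 1 or either induced AGO1 library and 2 without wild type B. The higher calls of miR-130 and miR-301 were 2 without wild type A or knockout line 2, and those of the miR-23, miR-27 and miR-24 clusters 2 without wild type A or knockout line 1. miR-148b-3p, whose call was kept without each wild type and knockout library, fell from 571 and 607 to 97.3 and 146 CPM (log2 change -2.31 ± 0.27, edgeR adjusted p = 8.67e-05). miR-24-3p fell from 224 and 206 to 62.4 and 35.2 CPM (log2 change -2.06), a call lost in thinned counts (edgeR adjusted p = 0.0514). Mostly higher calls were seen for miR-15 and miR-16 (12 of 14, 6 and 0, median 1.20), miR-34 and miR-449 (6 of 11, 3 and 0, median 1.29), miR-30 (11 of 12, 5 and 2, median 0.45) and miR-99 with miR-100 and miR-125 (7 of 11, 4 and 2, median 0.81). The miR-15 and miR-16 count was 3 without wild type B, and that of miR-99 with miR-100 and miR-125 was 2 higher without line 2 and 1 lower without line 1. The lower calls of miR-30 were 1 without wild type A. miR-34a-5p, a target of the p53 pathway, rose from 157 and 139 to 324 and 297 CPM (log2 change 1.07 ± 0.24, edgeR adjusted p = 0.00415). miR-16-5p itself, the most abundant of its family at 21550 and 21050 CPM in wild type against 25010 and 18830 CPM in the knockout, was not called.

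The other lists had few calls or calls in both directions. The miR-183 cluster had 2 higher and 3 lower of 6, miR-181 had 3 and 2 of 5 tested, the miR-26 and miR-101 families 1 and 2 of 7, miR-296 and miR-298 1 and 1 of 3, and the miR-200 family 0 and 1 of 8. Of these only the miR-183 cluster kept both counts within 1.5 times with every library left out. The miR-181 calls were 1 higher without line 1 and 1 lower without wild type A or either induced library. Those of miR-26 and miR-101 were 0 higher without any 1 library other than wild type A and knockout line 2, and 1 lower without wild type A, line 1, uninduced library A or either induced library. Without line 1, miR-296 and miR-298 had 0 higher and 2 lower calls and the miR-200 family had 2 lower, and the miR-200 family had 0 when any 1 library other than line 1 and wild type B was removed. The miR-302 to miR-367 cluster, of primed pluripotent cells, had 3 higher of 5 tested, but 0 without line 1, 1 without wild type B and 5 without line 2. Among the 3 was miR-302d-3p (30.8 and 21.6 CPM in wild type, 227 in line 1 and 40.2 in line 2), whose log2 change of 2.45 was not called without line 1 (0.64, edgeR adjusted p = 0.392) and was 3.16 without line 2. The X-linked germline group had 3 higher of 10 tested, and its share of counts was 0.0238% and 0.0272% in wild type, 0.111% in line 1 and 0.00918% in line 2. Without line 1 it had 0 higher and 3 lower calls, without line 2 it had 8 higher, and without wild type A and B it had 1 and 0 higher. For miR-451a, all 8 libraries had 0 counts, and miR-486a-5p and miR-486b-5p, also tied to slicing in red blood cells, were not called. That list had 2 higher calls without line 1 and 1 lower without line 2. Of 6 tested miRNAs made without Drosha, 1 was called lower, against 3 without knockout line 2 and 2 without any other single library except wild type A. The 1 was miR-1981-5p, a mirtron of Marc2, which fell from 72 and 90 counts to 1 and 2 counts (log2 change -3.99 ± 0.59, edgeR adjusted p = 0.000401, with -3.02 and -4.94 without lines 1 and 2).

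Markers of other cell types were summed to see what moves with the genotype. In RNA from whole cultures, fewer cells of a type and less RNA per cell cannot be told apart. The blood list took 0.169% and 0.192% of wild type counts against 0.653% and 0.794% of knockout counts, with 4 of 5 tested members higher (and 1 lower without line 2). Its erythroid and myeloid members miR-144-3p and miR-223-3p were at 0 counts in wild type and knockout. So was miR-451a, but its maturation depends on slicing, so its 0 in the knockout cannot be read as a sign of cell type. Arms count as members in these lists. Both arms of miR-142a were among the 4 higher, and the 1 tested blood member not called had a log2 change of -1.19. The liver, endoderm and pancreas list, with 1 higher of 3 tested, took 0.178% and 0.193% of wild type against 0.314% and 0.319% of knockout counts, and miR-122-5p was at 0. Neural markers, with 3 higher and 2 lower of 11 (1 higher without wild type B), took 0.208% and 0.188%, then 0.151% and 0.159%. Fibroblast and smooth muscle markers, with 1 higher and 1 lower of 8 (0 higher without wild type B), took 0.407% and 0.523%, then 0.231% and 0.322%. The 1 lower was the abundant miR-143-3p (log2 change -3.29), while the median over the 8 tested was 0.45, so the lower share does not describe most members. Muscle markers had no tested member. The part of such cells in the differences was not tested.

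The knockout lines were less alike than the wild type libraries. Over the 475 miRNAs the Spearman correlation was 0.902 between the lines and 0.977 between wild type A and B, and 134 miRNAs differed more than 2-fold between the lines against 41 between the wild type libraries. With at least 50 CPM on average in the knockout, 18 of 281 miRNAs differed more than 4-fold between the lines, 9 in each direction, against 1 between the wild type libraries. Each line is 1 library, and line 2 was the shallowest, so there is no test of these differences. The call for 151 of the 274 miRNAs, 68 higher and 83 lower, was kept without each of the 4 libraries in turn.

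Higher in line 1 were several miRNAs that were also high in the AGO1 line built from it. miR-470-5p, an X-linked germline miRNA, had 234.5 CPM in line 1, 10.1 CPM in line 2, 96.1 and 81.9 CPM in wild type and 246 and 195 CPM in the uninduced AGO1 line. miR-181a-5p had 192 and 10.1 CPM in the lines and 172 and 159 CPM in the uninduced AGO1 line. The same order was seen for miR-465c-5p (122 and 5.03 CPM, then 122 and 106 CPM), miR-871-3p (339 and 30.2, then 394 and 403 CPM), miR-302a-3p (99.8 and 10.1, then 102 and 172 CPM) and miR-211-5p (322 and 50.3, then 394 and 311 CPM). Of these 6 only miR-181a-5p was called between knockout and wild type.

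Among the miRNAs higher in line 2, miR-2137, miR-690 and miR-714 also differed more than 1.5 times between the libraries of other groups, miR-6240 only within the uninduced AGO1 line, and miR-1195 and miR-486b-5p within none. miR-2137 had 32.4 CPM in line 1 and 20820 CPM in line 2, with 85.4 and 1052 CPM in wild type and 2978 and 15730 CPM in the uninduced AGO1 line. miR-690 had 9.98 and 709 CPM in the lines and 192 and 708 CPM in the uninduced line, and its call was lost without either wild type library (edgeR adjusted p = 0.179 without A and 0.107 without B) and turned to -1.51 without line 2, with 4.59 without line 1. miR-6240 had 247 and 3084 CPM, and miR-1195, miR-486b-5p (17.5 and 121 CPM) and miR-714 complete the 6 largest differences of this direction. miR-2137, miR-6240 and miR-486b-5p were not called.

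**Figure D5:**
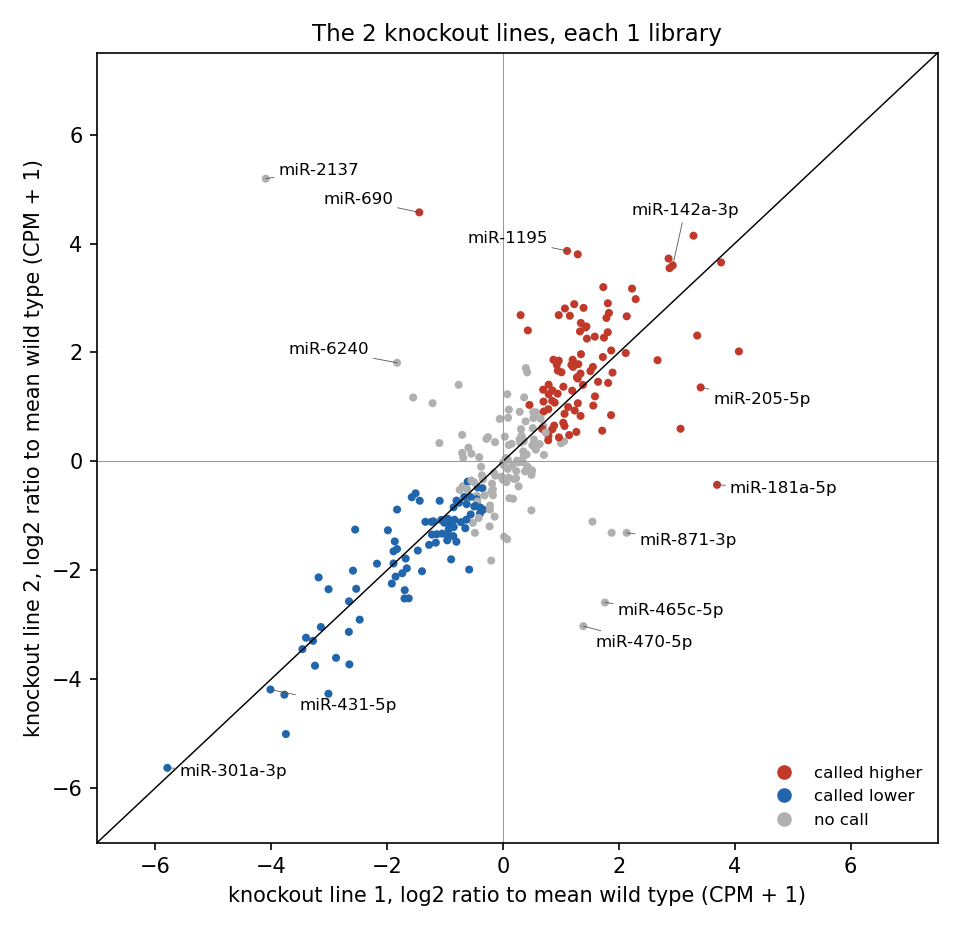
Log2 ratio of each knockout line (line 1 on x, line 2 on y, 1 library each) to the mean of wild type, on CPM + 1, for 281 miRNAs of at least 50 CPM in the knockout, red and blue where called. Most miRNAs lie along the line of equality, while miR-2137 and miR-690 lie above it and miR-470-5p, miR-465c-5p and miR-181a-5p below it.

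Levels of the large falls in the AGO1 line stand beside the comparison without a test. In that line, miR-301a-3p had 74.5 and 82.7 CPM in the uninduced and 1320 and 1158 CPM in the induced AGO1 line. miR-431-5p had 535 and 622 CPM uninduced and 4870 and 5801 CPM induced, and miR-103-3p 225 and 222, then 1389 and 1434 CPM. miR-298-5p had 2063 and 1934 CPM uninduced and 29920 and 31990 CPM induced. miR-181c-5p had 512 and 552, then 512 and 541 CPM, and miR-363-3p 108 and 136, then 371 and 428 CPM. Of these 6, only miR-298-5p was above its wild type level in the induced line.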

How the data were processed

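The deposited table holds whole-number counts of reads per mature miRNA for 8 libraries, without normalization. Bowtie and mm10 are named in the submitters' processing notes. For trimming, mismatches and reads with several matches, the settings were not given in the sources used here. RNA was extracted with Trizol and libraries were made with an Illumina TruSeq small RNA kit, per the labels' protocols.

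Of 1915 miRNAs, 901 had no count, and the 475 passing edgeR's filterByExpr held 99.9% of counts. Totals ranged from 163467 to 1326638 per library. No molecular identifiers are mentioned, so reads may be copies of 1 molecule and the floors of 3 counts cover only counting error. The versions were edgeR 4.0.16 with limma 3.58.1, DESeq2 1.42.0 and R 4.3.3. The 8 libraries were fitted in 1 model of 4 groups with 4 residual degrees of freedom (common biological coefficient of variation 0.244) by edgeR's quasi-likelihood F test, 2-sided, with Benjamini-Hochberg adjustment over all miRNAs tested. The SE is approximate: the absolute log2 change over the square root of F. Arm ratios were fitted with a column per arm and library, library terms and an arm term per group, for hairpins with at least 10 counts of each arm and 50 in all over wild type and knockout. Seed families sum counts over bases 2 to 8 of RefSeq sequences, which 1621 names matched, holding 94.75% of counts. Scripts were tested on simulated data. Coordinates are those of RefSeq miRNAs on GRCm38, and the genes around them are from GENCODE vM21.

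The text names the 12 largest rises and falls among calls of at least 50 CPM with non-overlapping groups, the 10 most abundant miRNAs, 2 per list of 27 name-based lists, the 6 largest arm, family and line differences each way, and others said to be chosen later. Members of lists and clusters given as examples follow their values. The members and lists were chosen with earlier results of these data known.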

Additional observations from a re-analysis of the deposited data

How the results depend on the processing

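Calls were recomputed with other scalings (size factors from DESeq2, or plain library totals), another test (DESeq2's Wald test), filters (none, or at least 20 CPM on average), the wild type and knockout libraries alone, a replicate block of the letters A and B, counts thinned to the smallest library, a change of at least 2-fold, and each library left out. The count of 274 called miRNAs moved by over 1.5 times only in thinned counts, to 174 of 325 tested (88 lower). It was 272 with DESeq2 size factors, 266 without TMM factors, 220 by the DESeq2 Wald test, 286 of 1014 without a filter and 194 of 421 with only wild type and knockout. With each of the 8 libraries left out it ranged from 195 to 274, with 83 to 122 higher and 91 to 152 lower. Arm ratios and seed families were refitted without each wild type and knockout library only. Arm ratio calls ranged from 44 to 54 and were 49 with at least 50 counts of each arm. Seed family calls ranged from 128 to 174, with 43 to 74 higher and 65 to 100 lower.

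The replicate block gave 242 miRNAs, of which 241 were calls of the same direction as without it, and 162 seed families. Deviations of libraries with the same letter correlated at 0.05, -0.01 and 0.20 over the 3 pairs of groups, and the knockout lines carry no letter. These correlations were not tested, so they cannot tell whether libraries with the same letter share a culture or batch.

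Small changes of miRNAs that were not called took the opposite sign in some settings. For miR-22-3p the log2 change of -0.01 was 0.07 with DESeq2 size factors and in the DESeq2 Wald test, 0.3 without TMM factors, 0.01 at 20 CPM or more, 0.14 with the wild type and knockout libraries alone, 0.16 in thinned counts, and -0.02 to 0.17 with a library left out. For miR-26a-5p the change of -0.02 was 0.05, 0.05, 0.28, 0, 0.13 and 0.18 in the same settings and -0.13 to 0.2 with a library left out. miR-295-3p had 0.12 without TMM factors and -0.34 to 0.14 with a library left out. miR-292a-5p had -0.04 without a filter and -0.07 to 0.31 with a library left out. The ranges with a library left out were -0.19 to 0.55 for miR-294-3p, -1.21 to 0.4 for miR-486a-5p and -1.56 to 1.19 for miR-486b-5p. In at least 1 alternative, 131 of the miRNAs lost a call, 83 gained one, 72 fell below the filter and 4 reversed. A miRNA can enter more than 1 of these counts, and the causes were not tested. The shallow knockout libraries limit what can be seen of rare miRNAs.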
